A study of Mus musculus with 6 samples.

Results

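Desmosomes and adherens junctions hold epithelial cells together, and 10 genes of these junctions are described here in upper first molars of newborn mice that carried an Ascl5 mutation on both alleles, on 1 allele or on neither. The genes were chosen by symbol from 24972 genes in the deposited tables: Cdh1, Dsp, Dsg2, Dsg3, Dsc2, Dsc3, Pkp1, Pkp3, Jup and Perp. Each genotype, Ascl5Mut/Mut, Ascl5Mut/WT and Ascl5WT/WT, is represented by 2 libraries of maxillary first molars taken at postnatal day 1. The labels give neither the sequence change in the mutant allele nor the mouse strain, and they do not say whether teeth or animals were pooled. The p-values below therefore measure the spread between these libraries, which may be technical.

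Classical cadherins and desmosomal cadherins are single-pass membrane proteins that bind cadherins of the neighbouring cell outside and plaque proteins inside. In an adherens junction, E-cadherin is tied through catenins to actin. In a desmosome, desmogleins and desmocollins bind plakoglobin and plakophilins, and these bind desmoplakin, which anchors keratin filaments. In stratified epithelia the desmosomal cadherins differ between layers: desmoglein 2 is typical of simple epithelia and basal cells, desmocollin 3 and desmoglein 3 of the basal and lower layers, and desmoglein 1 and desmocollin 1 of the upper, differentiating layers. The tooth germ combines dental epithelium, in which such junctions are made, with mesenchyme, which has few desmosomes.

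Of the 10 genes, 2 had a promoter window in the RefSeq table of build GRCm38.p6, and these windows are shown because Dsp carried most of the signal of the group, and because Ascl5 belongs to the basic helix-loop-helix family, whose members bind the E-box CANNTG. The windows run from 250 bases before to 50 bases after the annotated start and are written along the gene's strand, chr13:38151044-38151343 (plus strand) for Dsp and chr11:100397741-100398040 (minus strand) for Jup. Capitals mark the E-box.
Dsp: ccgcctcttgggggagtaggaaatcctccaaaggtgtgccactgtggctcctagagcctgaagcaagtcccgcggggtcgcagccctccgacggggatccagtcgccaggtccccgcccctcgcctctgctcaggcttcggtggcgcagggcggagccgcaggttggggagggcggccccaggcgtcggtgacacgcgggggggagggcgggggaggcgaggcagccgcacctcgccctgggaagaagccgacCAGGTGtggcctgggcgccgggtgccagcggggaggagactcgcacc
Jup: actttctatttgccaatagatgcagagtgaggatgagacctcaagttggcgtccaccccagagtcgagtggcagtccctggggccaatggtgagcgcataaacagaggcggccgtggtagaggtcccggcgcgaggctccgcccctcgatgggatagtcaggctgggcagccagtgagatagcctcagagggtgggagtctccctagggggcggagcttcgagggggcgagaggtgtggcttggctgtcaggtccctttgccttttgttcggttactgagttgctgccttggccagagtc
The Dsp window held 1 CANNTG, the sequence CAGGTG just downstream of the start, and the Jup window held 0. Of 32851 RefSeq windows of this length, 72.3% held at least 1 CANNTG (the motif is its own reverse complement). Neither window held CAGCTG (16.3% of all windows), CATG (61.1%) or AACCGG (6.83%), each searched on both strands. These matches describe letters only.

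All values are normalized counts deposited by the authors in 2 separately normalized tables, each with the Ascl5WT/WT libraries beside 1 mutant genotype. The total per library was 12304814 to 13118122. Low values clustered at multiples of 109 to 140 normalized counts, which appears to be the value of 1 read and puts the depth at an estimated 90476 to 117169 counted reads. For a gene listed at 0, the expected count may still be up to 3 such reads. That is 326 to 419 normalized counts depending on the library (counting error only). Between 66.6% and 71.0% of genes were listed at 0 in a library, and 28 of 85 genes with ribosomal protein symbols were at 0 in at least 1 library. Of the tissue's own markers, Krt14, Trp63 and Shh of dental epithelium and Dlx1, Vim and Col1a1 of mesenchyme were above 0 in both Ascl5WT/WT libraries, whereas Fgf9, Sox21, Lhx8 and Pax9 were listed at 0 in both.

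None of the 10 genes passed the test for a difference between genotypes. The test was limma on log2(normalized count + 120) over genes that averaged at least 1000 normalized counts in the table, with Benjamini-Hochberg adjustment over all genes tested. In Ascl5Mut/Mut against Ascl5WT/WT it called 20 of 2336 genes, or 0.856% (0.557% as higher and 0.3% as lower), and 0 of the 5 members that reached that mean (smallest limma adjusted p = 0.354). In Ascl5Mut/WT against Ascl5WT/WT it called 13 of 2370 genes, or 0.549% (0.338% as higher and 0.211% as lower), and 0 of 4 members (smallest limma adjusted p = 0.566). At an unadjusted p under 0.05, 1 member passed in each comparison, Dsc3 both times, where 11.2% and 8.73% of all tested genes did. The other members had means below 1000 and are described by their values. Both comparisons use the same Ascl5WT/WT libraries, so they are not independent of each other.

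**Figure D1:**
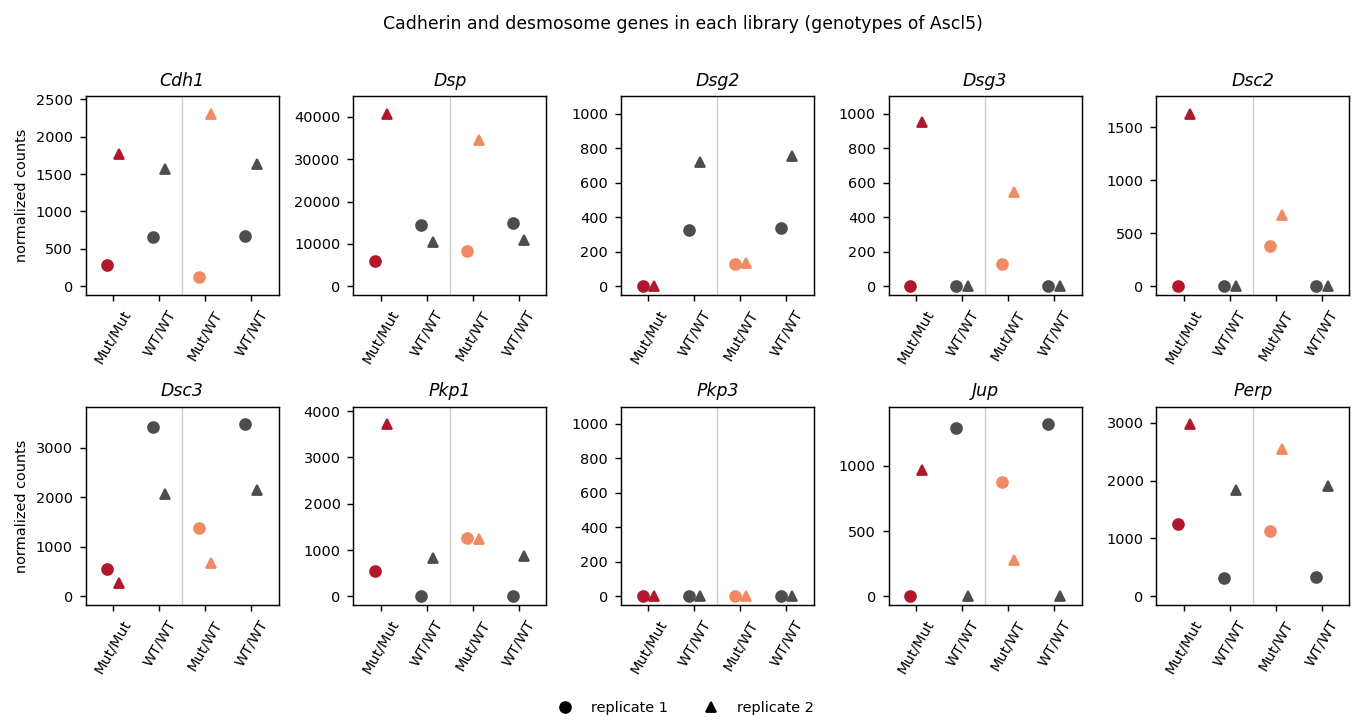
Normalized counts (linear axes, one scale per gene) of the 10 genes in each library, with Ascl5Mut/Mut and Ascl5WT/WT of the first table left of the grey line and Ascl5Mut/WT and Ascl5WT/WT of the second table right of it. Circles are replicate 1 and triangles replicate 2. Dsc3 and Dsg2 lie below Ascl5WT/WT in every mutant library, and Dsp lies above it in replicate 2 and below it in replicate 1 of both mutant genotypes.

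Cdh1 encodes E-cadherin, the classical cadherin of epithelial adherens junctions (chromosome 8, 106603351 to 106670246, plus strand, GRCm38). It had 280 and 1769 normalized counts in Ascl5Mut/Mut against 653 and 1561 in Ascl5WT/WT. In the second table it had 127 and 2307 in Ascl5Mut/WT against 666 and 1628 in Ascl5WT/WT. In both mutant genotypes replicate 1 was below and replicate 2 above the Ascl5WT/WT pair, so the groups overlapped. The log2 fold change was -0.39 for Ascl5Mut/Mut (95% confidence interval -3.00 to 2.22, limma adjusted p = 0.928) and -0.60 for Ascl5Mut/WT (-3.25 to 2.05, limma adjusted p = 0.895). These intervals hold changes of several-fold in either direction.

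Of the 4 desmosomal cadherins in the group, Dsc3 and Dsg2 were above 0 in Ascl5WT/WT molars and lower in both mutants. Dsc2 and Dsg3 were listed at 0 in Ascl5WT/WT molars, so they could not stand lower in the mutants. Their contrast with Dsc3 and Dsg2 was not tested. All 4 genes lie on chromosome 18. Dsg1a and Dsg1b, outside the group, were also above 0 in both Ascl5WT/WT libraries. In neither mutant did they lie below both Ascl5WT/WT libraries in both replicates. Dsc3, desmocollin 3 of basal and lower epithelial layers, had 556 and 267 normalized counts in Ascl5Mut/Mut against 3424 and 2069 in Ascl5WT/WT. It had 1378 and 670 in Ascl5Mut/WT against 3484 and 2153 in Ascl5WT/WT. Both mutant genotypes were below both Ascl5WT/WT libraries. The estimated reads behind these values were 4.0 and 2.0 in Ascl5Mut/Mut and 10.9 and 4.9 in Ascl5Mut/WT, against 31.5 and 17.3 in Ascl5WT/WT. The log2 fold change was -2.45 in Ascl5Mut/Mut (SE 0.89, 95% confidence interval -4.43 to -0.46, limma adjusted p = 0.354) and -1.40 in Ascl5Mut/WT (SE 0.67, interval -2.79 to -0.003, limma adjusted p = 0.566). Without 1 library at a time, the Dsc3 log2 fold change stayed between -2.85 and -2.04 in Ascl5Mut/Mut and between -1.86 and -0.93 in Ascl5Mut/WT, with no adjusted p under 0.05.

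Dsg2, desmoglein 2 of simple epithelia and basal cells, was at 0 in both Ascl5Mut/Mut libraries and had 327 and 719 normalized counts in Ascl5WT/WT. It had 126 and 136 in Ascl5Mut/WT, about 1 estimated read each, against 335 and 753 in Ascl5WT/WT. The groups were apart in both comparisons, at levels of 0 to 6.0 estimated reads per library. Dsg2 shares 330 exon bases with Gm16090, an antisense gene on the opposite strand, and the strand setting of the counting is not given in the sources used here, so reads of the pair cannot be told apart. Gm16090 had 969 and 1484 in Ascl5Mut/Mut against 4081 and 11122 in Ascl5WT/WT (log2 fold change -2.38, SE 0.63, limma adjusted p = 0.168). In Ascl5Mut/WT it had 4135 and 5368 against 4164 and 11610 in Ascl5WT/WT, and those groups overlapped.

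Dsc2, the most widely expressed desmocollin, was listed at 0 in Ascl5Mut/Mut replicate 1, had 1631 normalized counts in replicate 2 and was at 0 in both Ascl5WT/WT libraries. In Ascl5Mut/WT it had 384 and 676, against 0 in both Ascl5WT/WT libraries. Dsg3, desmoglein 3 of oral mucosa and lower epidermis, had 0 and 951 in Ascl5Mut/Mut and 128 and 543 in Ascl5Mut/WT, and it too was at 0 in Ascl5WT/WT. Of the mutant libraries, Ascl5Mut/Mut replicate 1 was the one in which neither gene was above 0. The values of Dsc2 correspond to about 12 estimated reads in Ascl5Mut/Mut replicate 2 and to 3.0 and 4.9 in Ascl5Mut/WT. A 0 leaves room for an expected count of up to 3 reads.

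Per kilobase of exon, the Dsc3 level as a share of the summed Dsc2 and Dsc3 levels was 100% and 13.8% in Ascl5Mut/Mut replicates 1 and 2, 77.8% and 49.2% in Ascl5Mut/WT replicates 1 and 2, and 100% in both Ascl5WT/WT libraries. No interval is given for these shares because whole reads could not be recovered. The summed level of the 4 desmosomal cadherins was 103 and 495 normalized counts per kilobase in Ascl5Mut/Mut against 673 and 470 in Ascl5WT/WT, and 362 and 346 in Ascl5Mut/WT against 685 and 490 in Ascl5WT/WT. Ascl5Mut/Mut replicate 1 had the lowest sum, made up of Dsc3 alone, and replicate 2 lay within the range of Ascl5WT/WT.

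**Figure D2:**
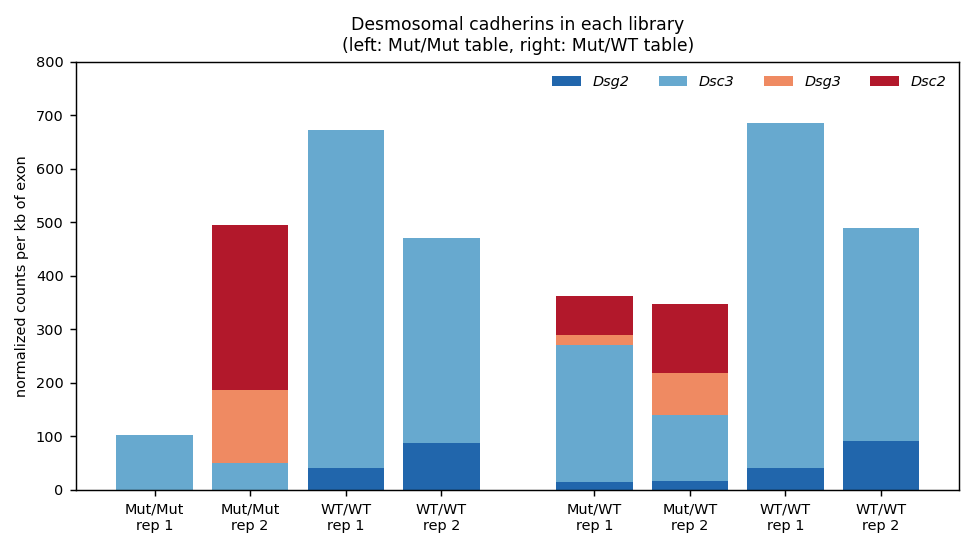
Normalized counts per kilobase of merged exon for Dsg2, Dsc3, Dsg3 and Dsc2, stacked per library, with the Ascl5Mut/Mut table on the left and the Ascl5Mut/WT table on the right. The Ascl5WT/WT bars hold Dsc3 and Dsg2 alone, and Dsc2 and Dsg3 are seen in Ascl5Mut/Mut replicate 2 and in both Ascl5Mut/WT libraries.

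Dsp encodes desmoplakin, the plaque protein that links desmosomes to keratin filaments (chromosome 13, 38151294 to 38198577, plus strand, GRCm38), and it made up 59.9% to 80.4% of the summed counts of the 10 genes in each library. It had 6058 and 40760 normalized counts in Ascl5Mut/Mut against 14525 and 10488 in Ascl5WT/WT. It had 8383 and 34574 in Ascl5Mut/WT against 14822 and 10947 in Ascl5WT/WT. Replicate 1 was below and replicate 2 above both Ascl5WT/WT libraries in both mutant genotypes, so the mutant libraries of 1 genotype differed more from each other than from Ascl5WT/WT. The log2 fold change was 0.35 for Ascl5Mut/Mut (95% confidence interval -1.22 to 1.92, limma adjusted p = 0.874) and 0.42 for Ascl5Mut/WT (-0.60 to 1.43, limma adjusted p = 0.805). It was -1.01 without Ascl5Mut/Mut replicate 2 and -0.60 without Ascl5Mut/WT replicate 2, so its direction rested on 1 library in each comparison. Dsp shares 499 exon bases with Gm10129 on the opposite strand, which was not analysed here.

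Jup encodes plakoglobin, the armadillo protein found in both desmosomes and adherens junctions (chromosome 11, 100368958 to 100397763, minus strand, GRCm38). Its values were 0 and 965 normalized counts in Ascl5Mut/Mut against 1288 and 0 in Ascl5WT/WT. In Ascl5Mut/WT they were 875 and 279, against 1319 and 0 in Ascl5WT/WT. Each comparison's groups overlapped, and 0 occurred in both genotypes of the first table.

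Pkp1, plakophilin 1 of stratified epithelia (chromosome 1, 135871395 to 135919207, minus strand, GRCm38), had 560 and 3726 normalized counts in Ascl5Mut/Mut against 0 and 828 in Ascl5WT/WT. It had 1265 and 1245 in Ascl5Mut/WT against 0 and 864 in Ascl5WT/WT. The groups overlapped in Ascl5Mut/Mut, and both Ascl5Mut/WT libraries were above both Ascl5WT/WT libraries. The log2 fold change for Ascl5Mut/Mut was 2.26 (SE 1.72, 95% confidence interval -1.58 to 6.11, limma adjusted p = 0.628). It was 3.51 without Ascl5Mut/Mut replicate 1, 1.01 without Ascl5Mut/Mut replicate 2, 0.77 without Ascl5WT/WT replicate 1, 3.75 without Ascl5WT/WT replicate 2 and 5.65 with a pseudocount of 1. In the Ascl5Mut/WT table the mean was below 1000, and with the minimum mean set to 300 the log2 fold change was 2.00 (SE 1.05, limma adjusted p = 0.685). Pkp3, plakophilin 3 (chromosome 7, 141078218 to 141090510, plus strand, GRCm38), stood at 0 in each of the 6 libraries.

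Perp encodes a small tetraspan membrane protein of desmosomes in stratified epithelia that is a target of p63 (chromosome 10, 18845020 to 18857073, plus strand, GRCm38). It had 1248 and 2979 normalized counts in Ascl5Mut/Mut against 326 and 1832 in Ascl5WT/WT. It had 1136 and 2552 in Ascl5Mut/WT against 332 and 1909 in Ascl5WT/WT. In both comparisons replicate 1 of the mutant lay between the Ascl5WT/WT libraries and replicate 2 above them. The log2 fold change was 1.14 for Ascl5Mut/Mut (95% confidence interval -0.93 to 3.22, limma adjusted p = 0.651) and 0.94 for Ascl5Mut/WT (-0.91 to 2.78, limma adjusted p = 0.764). Leaving out 1 Ascl5WT/WT library changed the Perp value in Ascl5Mut/Mut to 0.08 (replicate 1 left out) or 2.21 (replicate 2 left out). In Ascl5Mut/WT the same gave -0.15 (replicate 1) and 2.02 (replicate 2). Trp63, the gene of p63, had 1049 and 5829 in Ascl5Mut/Mut against 21134 and 13756 in Ascl5WT/WT (log2 fold change -2.70, SE 0.68, limma adjusted p = 0.145), so the fold changes of Perp and Trp63 had opposite signs there and neither passed.

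**Figure D3:**
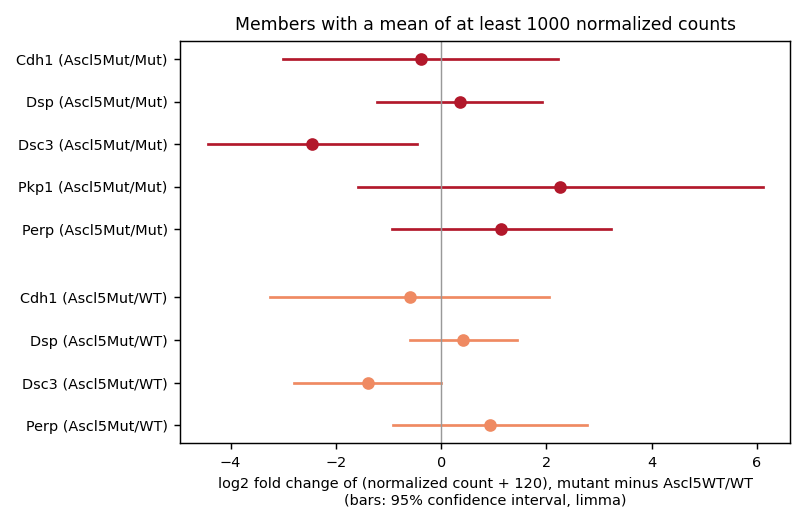
Log2 fold change of (normalized count + 120), mutant minus Ascl5WT/WT, with 95% confidence intervals from limma, for the members with a mean of at least 1000 normalized counts, Ascl5Mut/Mut above and Ascl5Mut/WT below. Every interval but those of Dsc3 includes 0, and no adjusted p is under 0.05.

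Counted over the group, 2 of the 9 members above 0 in at least 1 library of the Ascl5Mut/Mut table (Dsc3 and Dsg2) had both mutant libraries below both Ascl5WT/WT libraries and 0 had them above. Of 12731 genes above 0 in at least 1 library, 13.5% lay apart as lower and 13.3% as higher. In the Ascl5Mut/WT table, Dsc3 and Dsg2 were again lower and 3 members (Dsc2, Dsg3 and Pkp1) higher, of 9, where 11.8% of 12644 genes lay apart as lower and 14.5% as higher. With 9 genes, these counts are a description of the members.

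Ordered by level per kilobase of exon in Ascl5WT/WT molars, Dsp came first with 1504 and 1086 normalized counts per kilobase in the 2 libraries of the first table. Perp followed with 167 and 938, Dsc3 with 634 and 383, and Cdh1 with 143 and 341. Perp and Dsc3 overlapped, whereas Dsp lay above Perp and Dsc3 above Cdh1 in both libraries. Jup with 200.1 and 0, Pkp1 with 0 and 165 and Dsg2 with 39.6 and 87.0 came next and overlapped, Jup with Cdh1 too, and Dsc2, Dsg3 and Pkp3 were listed at 0. In Ascl5Mut/Mut, Dsp had 627 and 4220 per kilobase and Perp 639 and 1526, which overlapped. There Dsc3, at 103 and 49.4 per kilobase, ranked below Cdh1 and Dsc2 by mean, and in Ascl5Mut/WT, at 255 and 124, it ranked between Pkp1 and Dsc2. The order of Dsp first and Perp second by mean was found in all 3 genotypes.

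The genes with the pattern most like that of Dsp over the 8 library columns of both tables (6 libraries), by root mean square difference of centred log2(normalized count + 120), were Nim1k (0.25), LOC105245869 (0.30), Krt14 (0.39), Srsf4 (0.40) and A930012L18Rik (0.43), out of 2028 genes with a median difference of 1.09. Krt14 is the basal keratin whose filaments desmoplakin anchors, and it had 6362 and 20549 normalized counts in Ascl5Mut/Mut against 14740 and 13227 in Ascl5WT/WT. In Ascl5Mut/WT it had 13174 and 36780 against 16181 and 14852 in Ascl5WT/WT. The ratio of Dsp to Krt14 was 0.952 and 1.98 in Ascl5Mut/Mut against 0.985 and 0.793 in Ascl5WT/WT, and 0.636 and 0.940 in Ascl5Mut/WT against 0.916 and 0.737 in Ascl5WT/WT. Relative to Krt14, then, Dsp stood out in Ascl5Mut/Mut replicate 2, where it was highest. For Cdh1 the nearest genes were Ssb (0.43), Rptoros (0.46), Angptl1 (0.48), Zyx (0.52) and B230344G16Rik (0.52), against a median of 1.26. Among so many genes some match 6 libraries closely, and these likenesses are descriptions.

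Other desmosome and envelope genes were measured for comparison. Of 10 such genes, 3 were tested in Ascl5Mut/Mut and 2 in Ascl5Mut/WT, and 0 passed in either direction. Ppl and Evpl were tested in both comparisons, and Dsg1a (log2 fold change 0.09) in Ascl5Mut/Mut. The median log2 fold changes of 1.49 and 0.89 rest on these few genes. Evpl in both comparisons (982 and 996) and Dsg1a in Ascl5Mut/Mut (765) had Ascl5WT/WT means below the minimum mean. They were tested only because their mutant means were higher, so these medians cannot be set against that of all tested genes. Ppl, periplakin of the cornified envelope and desmosome, had 2920 and 8763 normalized counts in Ascl5Mut/Mut against 1639 and 943 in Ascl5WT/WT, and groups were apart (log2 fold change 1.93, SE 0.67, limma adjusted p = 0.344). Ppl had 2149 and 4594 in Ascl5Mut/WT against 1664 and 979 in Ascl5WT/WT (log2 fold change 1.22, SE 0.62, limma adjusted p = 0.587). Evpl, the related envoplakin, overlapped between groups in both comparisons, with log2 fold changes of 1.49 (SE 1.11, limma adjusted p = 0.627) and 0.56 (SE 1.02, limma adjusted p = 0.883).

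Dsc1, the desmocollin of upper, differentiating layers, had 0 and 2990 normalized counts in Ascl5Mut/Mut and 255 and 815 in Ascl5Mut/WT, and was listed at 0 in Ascl5WT/WT, the same arrangement as Dsc2 and Dsg3. Dsg1b had 0 and 3361 in Ascl5Mut/Mut against 328 and 143 in Ascl5WT/WT, and Dsg1a had 138 and 2848 in Ascl5Mut/Mut against 438 and 1091 in Ascl5WT/WT. In Ascl5Mut/WT, Dsg1b had 823 and 1314 against 333 and 148 in Ascl5WT/WT, and Dsg1a 184 and 952 against 444 and 1132 in Ascl5WT/WT. Dsg1a and Dsg1b are near-identical copies of desmoglein 1, so the split of reads between them is uncertain. Dsg1c, Dsg4 and Pkp2 were at 0 in all 6 libraries.

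None of the adherens junction partners of E-cadherin passed in either mutant. Of 8 such genes, 4 were tested in each comparison, with median log2 fold changes of -0.37 in Ascl5Mut/Mut and -0.19 in Ascl5Mut/WT. Ctnnb1, beta-catenin, had 3553 and 5998 normalized counts in Ascl5Mut/Mut against 7477 and 5033 in Ascl5WT/WT (log2 fold change -0.40, SE 0.48, limma adjusted p = 0.775). Ctnna1, alpha-catenin, had a log2 fold change of -0.44 in Ascl5Mut/Mut (SE 0.61, limma adjusted p = 0.812), and Afdn, afadin, one of -0.33 (SE 0.57, limma adjusted p = 0.859). In Ascl5Mut/WT the largest was that of Vcl, vinculin, at 0.43 (SE 0.40, limma adjusted p = 0.764), followed by Afdn at -0.38 and Ctnnb1 at -0.26. Of 13 tight junction genes none reached a mean of 1000 in either table. Among 6 gap junction genes Gja1, connexin 43, was tested, with a log2 fold change of -1.10 in Ascl5Mut/Mut (SE 0.64, limma adjusted p = 0.556) and -0.48 in Ascl5Mut/WT (SE 0.56, limma adjusted p = 0.811).

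Of 7 cadherins of other cell types, Cdh11, the cadherin of mesenchyme and osteoblasts, was the one tested. It had 1114 and 2515 normalized counts in Ascl5Mut/Mut against 546 and 988 in Ascl5WT/WT, and 2161 and 1473 in Ascl5Mut/WT against 551 and 1018 in Ascl5WT/WT. Both mutant genotypes lay above Ascl5WT/WT, with log2 fold changes of 1.07 (SE 0.88, limma adjusted p = 0.652) and 1.13 (SE 0.82, limma adjusted p = 0.693). Among 6 repressors of Cdh1 transcription Zeb2 was tested, with a log2 fold change of 1.43 in Ascl5Mut/Mut (SE 1.07, limma adjusted p = 0.628) and 1.21 in Ascl5Mut/WT (SE 1.28, limma adjusted p = 0.777), and overlapping groups in both.

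Epithelial regulators of junction genes gave 4 tested genes of 13 in each comparison and 0 calls. Besides Trp63, Ovol1, a repressor active in differentiating epithelium, had a log2 fold change of 1.83 in Ascl5Mut/Mut (SE 1.06, limma adjusted p = 0.555). In Ascl5Mut/WT the largest differences were those of Klf5 at 2.17 (SE 1.60, limma adjusted p = 0.693), Trp63 at -0.70 (SE 0.41, limma adjusted p = 0.601) and Klf4 at -0.21. Of 9 keratins that can attach to desmosomes, 6 were tested, and Krt4 and Krt13, the paired keratins of mucosal epithelium, rose in both mutants. Krt4 rose by 6.52 in Ascl5Mut/Mut (limma adjusted p = 0.0151) and by 6.07 in Ascl5Mut/WT (limma adjusted p = 0.000261). Krt13 rose by 6.0 (limma adjusted p = 0.0271) and by 5.16 (limma adjusted p = 0.0062). All 4 of these calls were lost with a pseudocount of 1 (limma adjusted p = 0.265 to 0.339) and without either mutant library (0.279 to 0.841). Those in Ascl5Mut/Mut were also lost with a minimum mean of 300 (limma adjusted p = 0.054 for Krt4 and 0.0876 for Krt13) or of 10 (0.44 and 0.576), and that of Krt13 in Ascl5Mut/Mut without Ascl5WT/WT replicate 1 (0.0974). Krt15 had log2 fold changes of 4.32 and 4.47 without passing (limma adjusted p = 0.538 and 0.594). Other keratins ran lower in Ascl5Mut/Mut: of the 6 tested, 3 had log2 fold changes above 0 and 3 below, and Krt5, Krt17, Krt8 and Krt18 had both Ascl5Mut/Mut libraries below both Ascl5WT/WT libraries. The Ascl5WT/WT values of Krt8 and Krt18 were 1.0 to 5.1 estimated reads. Krt17, a keratin of basal and appendage epithelium, had 272 and 1864 normalized counts in Ascl5Mut/Mut against 4638 and 7184 in Ascl5WT/WT (log2 fold change -2.74, SE 0.79, limma adjusted p = 0.221). In Ascl5Mut/WT it had 8885 and 6705 against 4689 and 7429 in Ascl5WT/WT, and those groups overlapped. There 5 tested keratins had log2 fold changes above 0 and 1 below, and Krt5 alone lay apart as lower, with 126 and 1685 in Ascl5Mut/WT against 2337 and 1825 in Ascl5WT/WT.

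The libraries differed in markers of other cell types alongside these genes. Summed over 11 markers of keratinizing oral epithelium, the level was 20922 and 134700 normalized counts in Ascl5Mut/Mut against 2902 and 658 in Ascl5WT/WT, and 15461 and 52937 in Ascl5Mut/WT against 2964 and 685 in Ascl5WT/WT. Of these markers, 9 lay apart as higher in Ascl5Mut/Mut and 7 in Ascl5Mut/WT, where 13.3% and 14.5% of genes above 0 in at least 1 library did. This list was chosen with earlier results of these data known. Krt10 overlapped in Ascl5Mut/Mut, with 415 and 2379 against 2143 and 0 in Ascl5WT/WT. Krt76, Krtdap, Sprr3, Rptn and Lor were at 0 in both Ascl5WT/WT libraries, and Ivl in all 6 libraries. In both mutant genotypes replicate 2, the library with the higher Dsp, Cdh1, Perp, Dsc2 and Dsg3, had the higher sum. Not all members followed it. Dsc3 was lower in replicate 2 of both genotypes, with 556 and 267 in Ascl5Mut/Mut and 1378 and 670 in Ascl5Mut/WT. Jup (875 and 279) and Pkp1 (1265 and 1245) were not higher in replicate 2 of Ascl5Mut/WT, though they were in Ascl5Mut/Mut. The 8 muscle markers had the lower sum in replicate 2 of both mutant genotypes. They summed to 201297 and 8386 in Ascl5Mut/Mut against 7276 and 26038 in Ascl5WT/WT, and to 59900 and 15372 in Ascl5Mut/WT against 7383 and 27048 in Ascl5WT/WT. Myog and Ckm were at 0 in both Ascl5WT/WT libraries.

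The 9 dental epithelium markers summed to 7411 and 27792 normalized counts in Ascl5Mut/Mut against 41288 and 31914 in Ascl5WT/WT, and to 22285 and 55997 in Ascl5Mut/WT against 42019 and 33570 in Ascl5WT/WT. Both Ascl5Mut/Mut libraries lay below both Ascl5WT/WT libraries, as did Dsc3 and Dsg2. Shh and Sostdc1 were at 0 in both Ascl5Mut/Mut libraries. In Ascl5WT/WT, Shh had 2146 and 1340 and Sostdc1 had 1413 and 1684. Sp6 and Fgf9 were also at 0 in both Ascl5Mut/Mut libraries. However, Sp6 had 1525 and 0 in Ascl5WT/WT, and Fgf9 was at 0 in both Ascl5WT/WT libraries. The 9 general epithelium markers summed to 8926 and 28067 in Ascl5Mut/Mut against 40037 and 31000 in Ascl5WT/WT. Epcam, Krt8 and Krt18 were at 0 in both Ascl5Mut/Mut libraries and above 0 in both Ascl5WT/WT libraries. The Ascl5WT/WT values were few estimated reads: 2.0 and 1.0 for Epcam, 1.0 and 3.9 for Krt8 and 5.1 and 3.0 for Krt18. In Ascl5Mut/WT the groups of Krt8 and Krt18 overlapped, Krt18 with 376 and 552 against 558 and 370 in Ascl5WT/WT. Cldn7 was at 0 in Ascl5Mut/Mut too, but had 327 and 0 in Ascl5WT/WT. In Ascl5Mut/WT the 9 markers summed to 21270 and 55304 against 40783 and 32572 in Ascl5WT/WT, with replicate 1 below and replicate 2 above both Ascl5WT/WT libraries. Krt14 and Trp63 are in both epithelium lists and made up most of each sum, so the 2 sums are not separate evidence. Neither gene passed in either comparison. The part of tissue composition in the differences of the 10 genes was not tested, and in these bulk samples fewer cells of a type and less RNA per cell cannot be told apart.

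**Figure D4:**
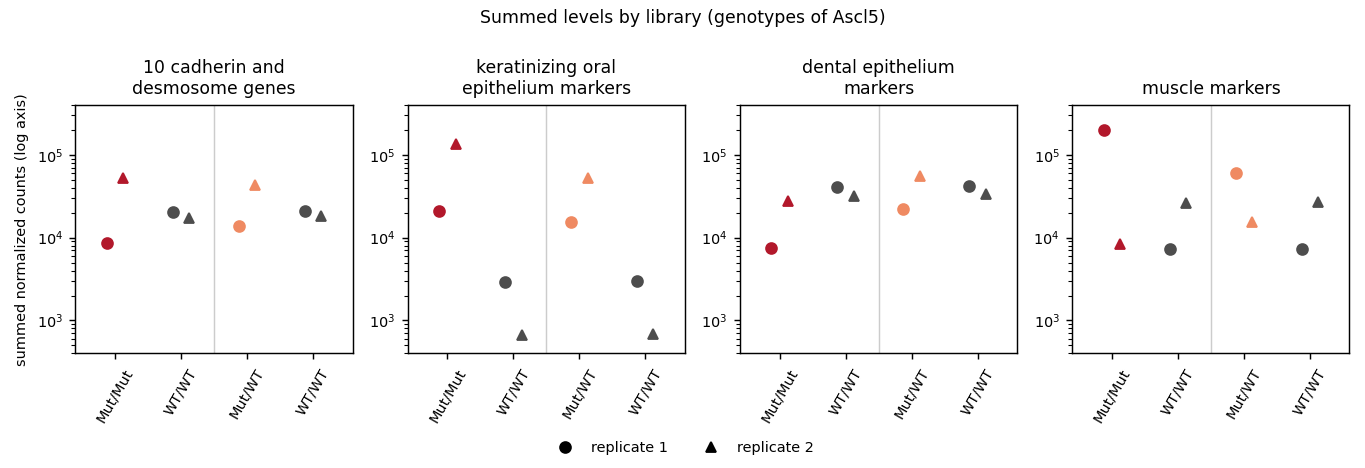
Summed normalized counts (log axis) of the 10 cadherin and desmosome genes and of 3 marker lists in each library, with the Ascl5Mut/Mut table left of the grey line in each panel and the Ascl5Mut/WT table right of it. Circles are replicate 1 and triangles replicate 2, and in both mutant genotypes replicate 2 is the higher in the first 3 panels and the lower in the muscle panel.

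Summed over the 10 genes, the level was 8702 and 53048 normalized counts in Ascl5Mut/Mut against 20544 and 17497 in Ascl5WT/WT, a log2 ratio of group means of 0.70. In Ascl5Mut/WT it was 13803 and 42982 against 20959 and 18253 in Ascl5WT/WT, a log2 ratio of 0.53. These sums are mostly Dsp, and in both comparisons they straddled the Ascl5WT/WT range. The 10 genes were 0.0674% and 0.431% of all normalized counts in Ascl5Mut/Mut against 0.161% and 0.139% in Ascl5WT/WT. Set side by side without a test, Dsc3 had 556 and 267 normalized counts in Ascl5Mut/Mut and 1378 and 670 in Ascl5Mut/WT, and Dsg2 was listed at 0 in Ascl5Mut/Mut and had about 1 estimated read per library in Ascl5Mut/WT. Dsc2 and Dsg3 were at 0 in 1 of 2 Ascl5Mut/Mut libraries and above 0 in both Ascl5Mut/WT libraries. The tables that hold these values were normalized separately, and the Ascl5WT/WT values of 1 library differed between them by a median ratio of 1.02 for replicate 1 and 1.04 for replicate 2.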

How the data were processed

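RNA of maxillary first molars was measured in 6 libraries from 3 genotypes, made with the SMARTer Stranded RNA-Seq kit, per the labels' protocols. The authors deposited normalized gene counts, treated as a linear signal, in 2 tables. Per the submitters' processing notes, they used mm10 and DESeq2. The sources used here name no aligner, annotation or strand setting for the counting. Whole reads were not recovered: 83.9% to 93.5% of values up to 5 steps lay within 0.1 of a whole step, so no count model was run.

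Each mutant was compared with Ascl5WT/WT within its table by limma 3.58.1 (intensity trend, two-sided, R 4.3.3) on log2(normalized count + 120), for genes averaging at least 1000, and an adjusted p under 0.05 counted as a call. The fit was run on simulated data to check the direction of its fold changes. That simulation set a fixed spread for every gene, so it does not measure the rate of false calls in these libraries. With 2 libraries a group, the smallest two-sided p of an exact permutation test is 0.333, so none was run. Exon lengths, positions and overlaps came from GENCODE M21 (GRCm38). The members, the gene lists and this setting were chosen with earlier results of these data known. All members were named. From each other list of junction, keratin, repressor and regulator genes, called genes and up to 3 tested genes with the largest absolute log2 fold change were named. The cell type marker lists are described by sums and single values, and the test results of their genes are not all given. The likeness of a pattern used genes that averaged at least 1000 in each table. Alternatives were other pseudocounts, minimum means and scaling, a replicate block and each library left out. No sequences of chromosome 18 are shown, and 7 mitochondrial genes listed for RNA quality were not analysed here. The result of 1 gene of the list of epithelial regulators is not reported here.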

Additional observations from a re-analysis of the deposited data

How the results depend on the processing

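The count of members called was 0 under every alternative run in both comparisons, with 0 to 2 at an unadjusted p under 0.05. The count of all genes called, 20 for Ascl5Mut/Mut, was 4 with a pseudocount of 1, 4 with a minimum mean of 300, 1 with a minimum mean of 10 and 0 to 33 with 1 library left out. The count of 13 for Ascl5Mut/WT was 8 with a pseudocount of 1, 21 with a minimum mean of 300 and 0 to 34 with 1 library left out. A replicate block gave 36 and 37 calls. The replicate numbers do not pair the libraries by the labels. Within each table, deviations of same-numbered mutant and Ascl5WT/WT libraries from their group means correlated at -0.01 over 2336 genes and 0.02 over 2370. Same-numbered Ascl5Mut/Mut and Ascl5Mut/WT libraries were not compared in this way. Their replicates differed in the same direction for Dsp, the keratinizing epithelium sum and the muscle sum, so a shared replicate effect between mutants was not tested. With 1 library left out, the log2 fold change ran from -1.51 to 0.73 for Cdh1, from -1.01 to 1.71 for Dsp, from 0.77 to 3.75 for Pkp1 and from 0.08 to 2.21 for Perp in Ascl5Mut/Mut, turning positive for Cdh1 without Ascl5Mut/Mut replicate 1 (0.73) or Ascl5WT/WT replicate 2 (0.17) and negative for Dsp without Ascl5Mut/Mut replicate 2. In Ascl5Mut/WT it ran from -2.25 to 1.05 for Cdh1, from -0.60 to 1.43 for Dsp and from -0.15 to 2.02 for Perp. The summed level ran from -1.13 to 1.48 in Ascl5Mut/Mut and from -0.51 to 1.13 in Ascl5Mut/WT, and without Dsp, a setting chosen after seeing the data, it was 0.20 and 0.04. Each reversal rests on fewer samples. At about 1 read per 109 to 140 normalized counts, members other than Dsp rest on few reads.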

Other observations

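Tight junction genes were near the floor. Of 13 such genes, 3 were listed at 0 in all 4 libraries of the Ascl5Mut/Mut table and 1 in those of the Ascl5Mut/WT table. Tjp1, the scaffold protein ZO1, was the one above 0 in all 6 libraries, with 702 and 1078 normalized counts in Ascl5Mut/Mut against 1087 and 484 in Ascl5WT/WT, and 757 and 269 in Ascl5Mut/WT against 1111 and 506 in Ascl5WT/WT. Epcam, an epithelial adhesion molecule that is not a cadherin, was at 0 in Ascl5Mut/Mut against 217 and 120 in Ascl5WT/WT, and had 506 and 0 in Ascl5Mut/WT against 221 and 125 in Ascl5WT/WT. The 217 and 120 of Epcam were 2.0 and 1.0 estimated reads. Cdh3, P-cadherin of basal epithelium, was at 0 in Ascl5Mut/Mut against 110 and 119 in Ascl5WT/WT, about 1 estimated read each. In Ascl5Mut/WT it had 0 and 138 against 111 and 123 in Ascl5WT/WT, and those groups overlapped.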
